A study of Mus musculus with 12 samples.

Results

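The genes described here are 10 regulators of the step from G1 into S phase of the cell cycle: the D-type cyclins Ccnd1, Ccnd2 and Ccnd3, their partner kinases Cdk4 and Cdk6, and the CDK inhibitors Cdkn1a, Cdkn1b, Cdkn2a, Cdkn2b and Cdkn2c. They were chosen by name, as 10 of the 21757 protein-coding genes of the GENCODE annotation of mm39, and each was read over its gene body plus 20 kb on each side. Within these windows lay 58 of 87689 hypomethylated regions (HMRs), stretches of low CpG methylation that mark active or poised promoters and enhancers. The samples were 12 whole-genome bisulfite libraries of pancreatic beta cells from mice of genotype Myt1cCre; Ngn3nCre; Rosa26eYFP, InsApple, at postnatal day 2 (P2) or 2 months (P60).

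All mice carried the same alleles: both parts of a split Cre recombinase, driven by Myt1 and by Ngn3, a Rosa26 reporter that turns on eYFP where both parts met, and an Apple reporter for insulin. Cells that had expressed both drivers as progenitors became eYFP+ (M+N+), the others eYFP- (M-N+), and cells were sorted on eYFP and Apple. There were 2 eYFP- and 2 eYFP+ libraries at P2 and 4 of each at P60. For each stage and sex at least 3 sorts of 4 to 7 mice were combined. Whether P60 libraries of the same subtype and labelled sex came from separate pools of mice is not stated. The p-values over libraries therefore measure the spread between libraries, which may not be that between pools of mice. The split-Cre label reports which progenitors had been active and not what the cell expressed when it was sorted. The labels give the cell type as all islet cells, while the titles name sorted beta cells.

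D-type cyclins bind Cdk4 or Cdk6 and phosphorylate the retinoblastoma protein, which frees E2F factors to start DNA replication. Cdkn2a, Cdkn2b and Cdkn2c encode INK4 proteins (p16, p15 and p18) that block Cdk4 and Cdk6, and Cdkn1a and Cdkn1b encode p21 and p27, which act mainly on Cdk2 complexes. Cdkn2a also encodes Arf, from a start of its own, which stabilizes p53. In the mouse, beta cells divide rapidly around birth and slow down over the following weeks, Cdk4 and cyclin D2 are needed for their postnatal growth, and p16 rises with age. Neither proliferation nor expression was measured in these libraries, so the values below give methylation at these genes at an age of rapid and an age of slow division.

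Reads over CpGs were available as pools of the libraries of a subtype and stage, with a mean of 24.0 and 24.2 reads per CpG at P2 and 43.7 and 43.4 at P60 (eYFP- first), or 10.9 to 12.1 per library. HMRs were available for each library, and covered 2.18% to 2.34% of the autosomes in the 4 P2 libraries and 1.70% to 1.80% in the 8 P60 libraries. The P2 libraries carry one file-name prefix and the P60 libraries 2 others, so stage and library set cannot be told apart. At the starts of 7 beta-cell genes the median methylation level was 11.8% and 19.8% in the P2 pools and 6.70% and 7.01% in the P60 pools, with Pdx1 and Nkx6-1 at 0.685% to 2.79%, against a median of 57.1% to 61.2% at 11 genes of other pancreatic cells, although some of these, such as Hhex (1.01% to 2.82%) and Sst (18.2% to 23.8%), were also low. Ins1 was at 32.5% and 43.3% at P2 and at 7.93% and 10.1% at P60, and the part of other cells in the stage differences was not tested. Over 253 X-chromosome HMRs that separated the P60 libraries by labelled sex, P2 eYFP- replicate 1, labelled female, held 91.7% and P2 eYFP- replicate 2, labelled male, held 13.4%, against their labels. All 10 genes are autosomal, libraries were not compared by sex, and the part of sex in the values was not tested. Replicate numbers follow labelled sex, so averages by replicate number also group libraries by labelled sex. At P2 such averages join libraries with unlike X-chromosome HMRs, since eYFP+ replicate 1 held 13.0% and eYFP+ replicate 2 held 83.8%.

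The 4 stretches of the mm39 genome printed here are sequence of 4 HMRs that were covered less at P60. The fourth stretch itself was still HMR, wholly or in part, in P60 libraries, and the third was HMR in part in P60 eYFP- replicate 1. Each is the plus strand, 5′ to 3′, in lower case with CpG sites in capitals, and is the central part (for Ccnd2 the whole, plus the last base of its last CpG) of an HMR that changed near the gene by both measures used below. The first, chr6:127139769-127140058, lies between genes upstream of Ccnd2 and the second, chr17:29299903-29300202, between genes upstream of Cdkn1a. The third, chr4:89221202-89221501, lies between the 3′ end of Cdkn2b and the Arf start, and the fourth, chr4:89207859-89208158, in the intron of Cdkn2a between the Arf and Ink4a starts.
Ccnd2 upstream: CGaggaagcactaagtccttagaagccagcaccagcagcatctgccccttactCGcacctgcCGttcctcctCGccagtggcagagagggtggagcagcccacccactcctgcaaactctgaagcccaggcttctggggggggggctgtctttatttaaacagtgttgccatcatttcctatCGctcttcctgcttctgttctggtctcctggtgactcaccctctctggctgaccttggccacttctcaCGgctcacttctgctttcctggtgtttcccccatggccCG
Cdkn1a upstream: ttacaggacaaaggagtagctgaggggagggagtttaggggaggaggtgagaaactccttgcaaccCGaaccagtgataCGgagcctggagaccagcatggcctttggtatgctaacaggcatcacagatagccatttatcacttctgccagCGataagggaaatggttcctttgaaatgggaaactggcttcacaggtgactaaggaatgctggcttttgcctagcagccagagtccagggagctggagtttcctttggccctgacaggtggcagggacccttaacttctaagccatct
Cdkn2b to Arf: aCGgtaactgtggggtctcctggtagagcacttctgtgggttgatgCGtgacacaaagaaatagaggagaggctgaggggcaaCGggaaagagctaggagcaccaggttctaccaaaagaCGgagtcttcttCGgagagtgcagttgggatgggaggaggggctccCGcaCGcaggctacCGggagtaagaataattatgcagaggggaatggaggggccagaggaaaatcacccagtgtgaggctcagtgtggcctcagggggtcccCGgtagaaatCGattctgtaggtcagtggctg
Arf to Ink4a: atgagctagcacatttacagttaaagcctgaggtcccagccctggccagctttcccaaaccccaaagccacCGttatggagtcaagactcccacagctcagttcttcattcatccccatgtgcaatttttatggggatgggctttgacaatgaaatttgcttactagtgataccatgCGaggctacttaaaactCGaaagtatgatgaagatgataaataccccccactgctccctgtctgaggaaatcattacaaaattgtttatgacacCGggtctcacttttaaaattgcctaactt
These stretches hold few CpGs: the Cdkn1a stretch holds 3, the stretch between Arf and Ink4a 4, the Ccnd2 stretch 7 and the stretch between Cdkn2b and Arf 10. At all 7 CpGs of the Ccnd2 stretch the level was higher at P60 than at P2 in both subtypes, from 5.26% to 20% in the P2 eYFP- pool and from 13.8% to 57.4% in the P60 eYFP- pool. All 3 CpGs of the Cdkn1a stretch, 8 of the 9 CpGs with reads in every pool between Cdkn2b and Arf, and 3 of the 4 between Arf and Ink4a were also higher at P60 in both subtypes.

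HMRs away from transcript starts gained methylation between P2 and P60 near 8 of the 10 genes, all but Ccnd1 and Cdkn2c, and no promoter HMR passed the test. Cdkn2a and Cdkn2b count through the same 2 HMRs, and the 1 near Cdkn1b had 55 and 61 reads, summed over its 9 CpGs, in the P2 pools. The share of all genes with at least 1 such HMR is not given, so the count of genes has no background. Of the 58 HMRs, 14 were higher in methylation at P60 and 2 were lower. An HMR counted as changed where pooled methylated and unmethylated reads differed in each subtype (two-sided Fisher's exact test, Benjamini-Hochberg adjusted p under 0.05 over all HMRs) and the level moved by at least 10 percentage points the same way in both. Over all HMRs tested the shares were 22.9% higher and 1.73% lower, so the 24.1% at these genes was close to the background. The test compares pools of reads and not mice, and counts of PCR reads are not independent molecules. Read counts of a region were summed over its CpGs, so a read counts once for each CpG that it covers. These p-values and the 95% Wilson intervals below take the counts as independent and cover counting error only, so the intervals can be too narrow.

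None of the 22 HMRs that hold a protein-coding transcript start was among the 14 that gained methylation, while 14 of the 36 others were. Among all HMRs tested the same split was 4.23% and 27.0%. The median level of the 22 HMRs with a start was 2.74% and 3.10% in the P2 pools and 2.90% and 2.92% in the P60 pools, eYFP- first. That of the 36 without one was 14.1% and 12.9% at P2 and 24.5% and 25.6% at P60. Across all 58 the median change was 1.67 points in eYFP- cells and 1.64 in eYFP+ cells, against 2.93 and 2.39 over all HMRs.

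**Figure D1:**
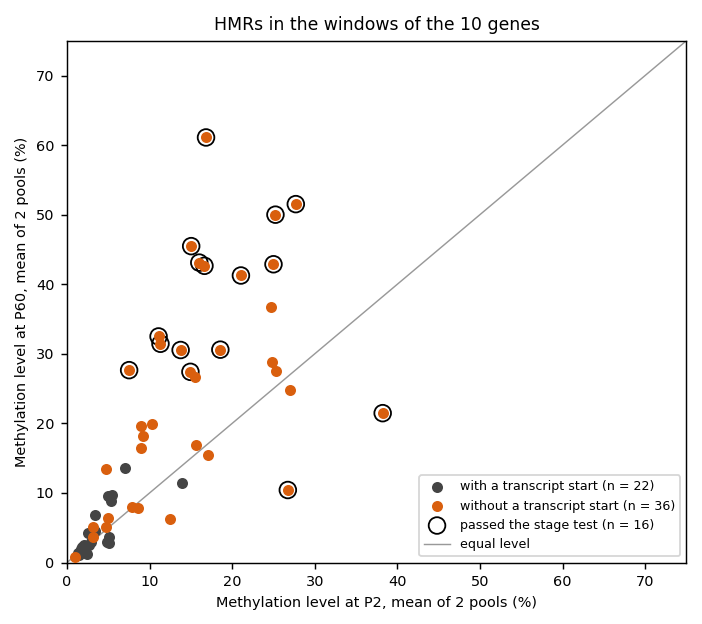
Methylation level (%) of each of the 58 HMRs at P2 (x axis) and P60 (y axis), each the mean of the eYFP- and eYFP+ pools; grey points hold a transcript start, orange points do not, black rings mark the 16 HMRs that passed the stage test and the line marks equal levels. All ringed points are orange: 14 lie above the line and 2 below it.

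The measure with replicates was the part of an HMR that lay inside the HMRs of each library. By an exact permutation test of 4 P2 against 8 P60 libraries, adjusted over all HMRs, 14 of the 58 were covered less at P60 and 1 was covered more, where the background was 16.5% and 0.624%. Of the 14 that gained methylation, 6 also lost coverage, and the same share over all HMRs is not given. Both measures come from the same libraries, so they are not independent. Of the 58, 3, near Ccnd2, Cdkn1a and Cdk4, were HMRs in all 4 P2 libraries and in none of the 8 P60 libraries, as were 5.27% of all HMRs. These tests take the 12 libraries as separate units. With the P60 libraries of the same replicate number averaged, a choice added after the data were seen, 4 units stood against 4, the smallest possible p was 0.0286, and no HMR or gene of the whole table passed (smallest adjusted p = 0.120 for HMRs and 0.0675 for gene windows, exact permutation test).

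The percent of each gene window covered by HMRs summarizes a gene by 1 value per library. It was lower at P60 for 8 of the 10 genes, with a background of 45.1% of all genes, and higher for Cdkn1b, with a background of 0.961% (exact permutation test, Benjamini-Hochberg adjusted over 21757 genes). Ccnd1 did not pass. The stages did not overlap for 7 genes, as for 32.7% of all genes. Since P60 libraries held fewer HMR bases over the autosomes as a whole, the same values were divided by the HMR-covered percent of the autosomes of each library. Then 3 genes were lower, Cdkn1a, Cdkn2a and Cdkn2b (background 10.6%), and 5 were higher, Ccnd1, Ccnd2, Cdk4, Cdkn1b and Cdkn2c (background 29.0%), and Ccnd3 and Cdk6 did not pass. Cdkn1a, Cdkn2a, Cdkn2b and Cdkn1b thus passed in the same direction under both scales. The mean of Ccnd3 stayed lower at P60 but no longer passed. The means of Ccnd1, Ccnd2, Cdk4, Cdk6 and Cdkn2c turned, where Ccnd1 had not passed before scaling and Cdk6 did not pass after it.

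**Figure D2:**
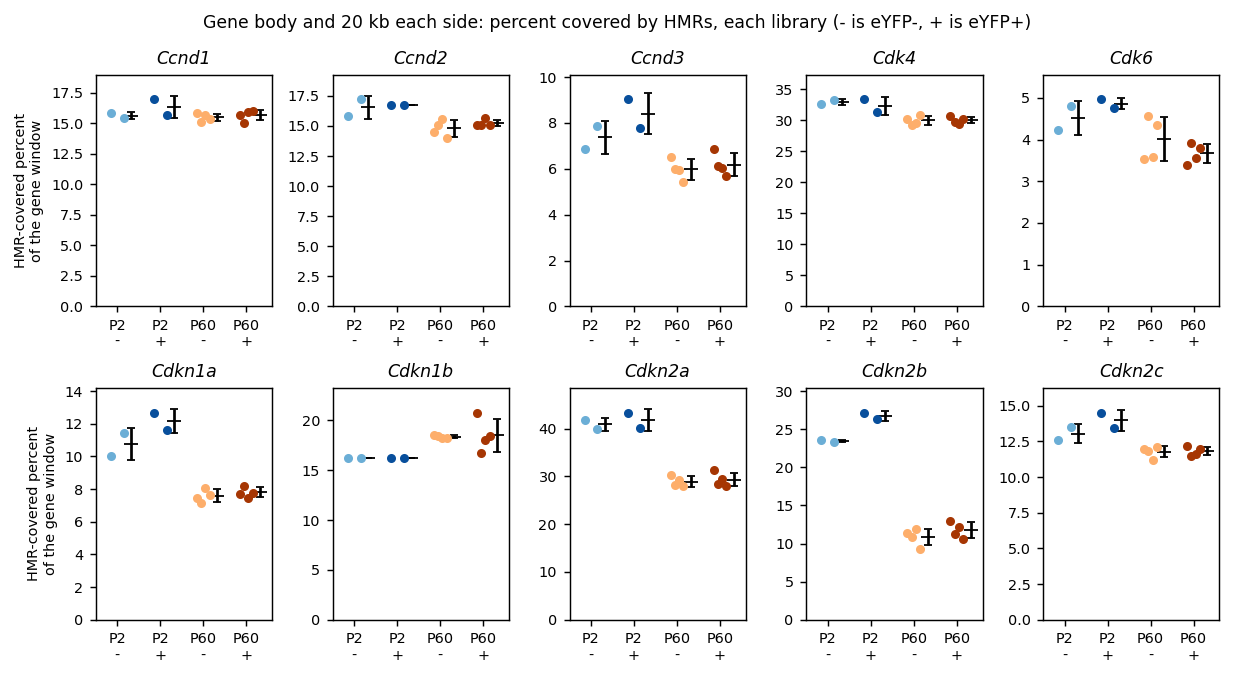
Percent of the window of each gene (gene body and 20 kb on each side) covered by HMRs in each of the 12 libraries (points), by stage and subtype, with the mean and SD of each group beside them; every y axis starts at 0. Cdkn2a and Cdkn2b have the widest gaps between stages in percentage points, Cdkn1b is the 1 gene that is higher at P60 before scaling, and Ccnd1 overlaps; relative to the autosomes Ccnd1, Ccnd2, Cdk4, Cdk6 and Cdkn2c turn to higher means at P60.

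Cdkn2b and Cdkn2a, neighbours on chromosome 4 whose windows share 4 HMRs, had the largest differences in percent of the 10 windows. By the ratio of P60 to P2, Cdkn2b fell most (0.450), and Cdkn1a (0.671) fell more than Cdkn2a (0.705). For Cdkn2b (chr4:89223204-89229276, minus strand) the window was 23.6% and 23.3% HMR in the P2 eYFP- libraries and 27.2% and 26.3% in the P2 eYFP+ libraries. In the 8 P60 libraries it was 9.34% at the lowest, 11.3% at the median and 13.0% at the highest, so every P60 library lay below every P2 library. The mean fell from 25.1% ± 1.93 (SD, n = 4) to 11.3% ± 1.11 (SD, n = 8), an adjusted p of 0.00655 by the exact permutation test, and relative to the autosomes from 11.2-fold to 6.42-fold. This p was the floor of the test over genes. Cdkn2a, Cdkn1a, Cdkn1b, Cdkn2c, Ccnd2, Cdk4 and genes outside the 10 shared it, so it does not rank genes. By the difference in percent, Cdkn2b had the 2nd and Cdkn2a the 5th largest loss of 21757 genes. Both windows hold the same changed stretch, so these are not 2 separate observations.

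For Cdkn2a (chr4:89192708-89212890, minus strand) the P2 libraries were at 41.9% and 39.9% (eYFP-) and 43.3% and 40.1% (eYFP+). The P60 libraries ranged from 27.9% over a median of 28.8% to 31.2%, again without overlap. The mean went from 41.3% ± 1.62 (SD, n = 4) to 29.1% ± 1.19 (SD, n = 8), with an adjusted p of 0.00655 by the same exact test. Relative to the autosomes it went from 18.4-fold to 16.5-fold. In the 2 sets of P60 libraries, replicates 1 and 2 or replicates 3 and 4, the mean was 29.5% or 28.7% for Cdkn2a and 11.6% or 11.0% for Cdkn2b.

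The loss of HMR sequence fell mainly between the starts. The HMR between the 3′ end of Cdkn2b and the Arf start (chr4:89219864-89222840, 33 CpGs, the source of the third printed stretch) had a level of 14.7% (12.5 to 17.3, 836 reads) in P2 eYFP- and 15.4% (13.0 to 18.1, 755 reads) in P2 eYFP+ cells. At P60 it was 45.4% (43.2 to 47.7, 1890 reads) and 45.5% (43.2 to 47.9, 1734 reads). The adjusted p was 7.73e-56 and 2.36e-48 by Fisher's exact test on the pools. The 4 P2 libraries called 2823, 2551, 2833 and 2679 bp of it as HMR, P60 eYFP- replicate 1 called 247 bp and the other 7 P60 libraries none. Of its 32 CpGs with reads in every pool, 31 were higher at P60 in both subtypes.

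The HMR in the intron between the Arf and Ink4a starts (chr4:89204976-89211042, 55 CpGs) was split into 2 parts in every P60 library. Its level was 15.2% (13.4 to 17.2) and 14.7% (12.9 to 16.6) at P2, eYFP- first, and 29.4% (27.8 to 31.0) and 25.5% (24.0 to 27.0) at P60. It covered 4576 and 4558 bp in the P2 eYFP- libraries, 6067 bp in both P2 eYFP+ libraries and 1786 to 3294 bp in the P60 libraries. The covered share had an adjusted p of 0.0148 by the exact permutation test. This was the floor of that test over HMRs, which other HMRs of these genes shared. Of its 55 CpGs, 42 were higher at P60 in both subtypes, and 1 was lower in both.

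The promoters themselves stayed low in methylation. The HMR at the Cdkn2b start (chr4:89227647-89229627) was at 5.49% and 5.34% at P2 and 9.89% and 9.53% at P60, and was 1387 to 1890 bp long in the P2 libraries and 945 to 1253 bp in the P60 libraries. The HMR at the Arf start (chr4:89212370-89214385) was at 3.41% and 3.35% at P2 and 6.38% and 7.15% at P60. Both lost coverage over libraries (adjusted p = 0.0148 and 0.0370, exact permutation test), and neither level moved by 10 points. The HMR at the Ink4a start, 13549 bp long, was at 5.53% and 5.21% at P2 and 8.82% and 9.01% at P60 and did not pass for coverage (adjusted p = 0.149, exact permutation test).

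Between the Cdkn2b and Arf starts, leaving out 2 kb beside each, 114 CpGs had a pooled level of 45.3% (43.5 to 47.1) and 41.5% (39.8 to 43.4) at P2 and of 71.9% (70.8 to 73.0) and 72.3% (71.2 to 73.4) at P60, an interval chosen after its values were seen. Between the Arf and Ink4a starts, 75 CpGs were at 29.9% and 28.0% at P2 and at 38.4% and 35.6% at P60. Bases that were HMR in all 4 P2 libraries and in none of the 8 P60 libraries came to 2918 bp in this region. Of these, 134 bp lay in the HMR at the Cdkn2b start. The 2918 bp made up 6.33% of the Cdkn2b window and 4.85% of the Cdkn2a window, against 0.141% of the autosomes. At P2 these windows were on average 25.1% and 41.3% HMR, against 2.24% of the autosomes. The gap to the autosomes thus overstates the loss per HMR base. Over the union of all gene windows described here, which was 13.4% HMR at P2, such bases made up 0.774%.

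**Figure D3:**
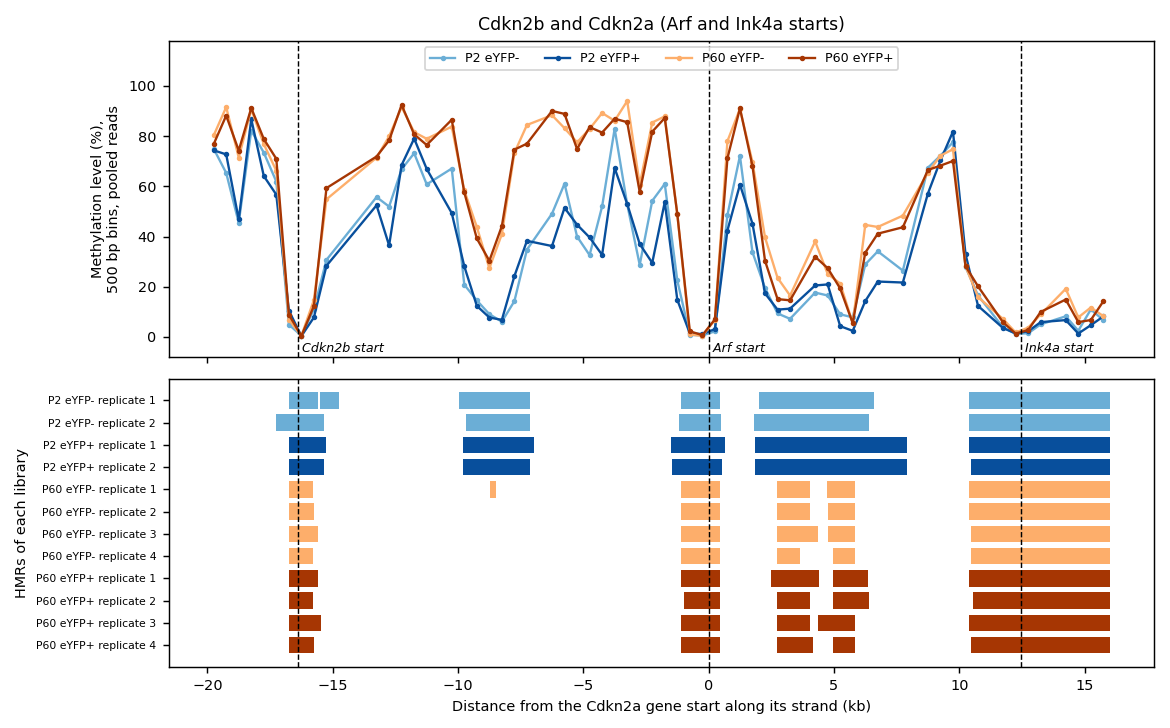
Top, methylation level (%) of the 4 pools in 500 bp bins along the Cdkn2b and Cdkn2a genes, by distance from the Arf start in kb (genes read left to right); bottom, the HMRs of each of the 12 libraries as bars. The HMR between the Cdkn2b and Arf starts is present in the 4 P2 libraries and, as a remnant of 247 bp, in 1 P60 library, the HMR that starts near 2 kb is in 2 parts in the P60 libraries, and the level falls near 0 at all 3 marked starts at both stages.

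Cdkn1a (chr17:29309936-29319701, plus strand) lost an upstream HMR. Its window was 10.1% and 11.5% HMR in the P2 eYFP- libraries, 12.7% and 11.6% in the P2 eYFP+ libraries and 7.14% to 8.21% (median 7.69%) in the P60 libraries, without overlap. The mean fell from 11.5% ± 1.08 (SD, n = 4) to 7.69% ± 0.341 (SD, n = 8), with an adjusted p of 0.00655 by the exact permutation test, and relative to the autosomes from 5.11-fold to 4.37-fold.

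With distances taken from the centre of an HMR to the annotated 5′ end of the gene, the HMR 9883 bp upstream of Cdkn1a (chr17:29299527-29300578, 26 CpGs, the source of the second printed stretch) rose from 19.6% (16.7 to 23.0, 616 reads) to 66.0% (63.4 to 68.4, 1378 reads) in eYFP- cells. In eYFP+ cells it rose from 14.0% (11.7 to 16.8, 720 reads) to 56.2% (53.6 to 58.8, 1405 reads). The P2 libraries called 832, 906, 1052 and 906 bp of it as HMR and the P60 libraries none. All 26 CpGs were higher at P60 in both subtypes, and the mean change of 44.3 points was the largest of the 58 HMRs. A second HMR, 17816 bp upstream, rose from 24.6% and 25.4% to 43.7% and 42.1%. It was an HMR in 3 P2 libraries and no P60 library and did not pass for coverage (adjusted p = 0.0734, exact permutation test). The HMR between them, 12340 bp upstream, stayed at 7.89% to 7.98% in all pools. The promoter HMR of the main Cdkn1a transcript (chr17:29312216-29315121) was at 1.94% and 1.62% at P2 and 2.26% and 2.17% at P60.

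Cdkn1b (chr6:134897364-134902476, plus strand), the p27 gene, moved the other way. Its window was 16.2% HMR in each of the 4 P2 libraries and 16.8% to 20.8% (median 18.3%) in the P60 libraries, without overlap. The mean rose from 16.2% ± 0.0229 (SD, n = 4) to 18.4% ± 1.104 (SD, n = 8), with an adjusted p of 0.00655 by the exact permutation test, and relative to the autosomes from 7.24-fold to 10.5-fold. This was the 59th largest gain of 21757 genes by the difference in percent.

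The gain was mainly an extension of the promoter HMR into the gene. In P60 eYFP+ replicate 1 alone, the HMR 3′ of the gene, present in all 12 libraries, also reached further towards the gene. The HMR at the Cdkn1b start (chr6:134896492-134900641, 172 CpGs) spanned 3018, 2802, 3056 and 3106 bp in the P2 libraries and 3356 to 4124 bp in the P60 libraries, the 1 HMR of the 58 covered more at P60 (adjusted p = 0.0148, exact permutation test). A segment of 337 bp at its 3′ side (chr6:134899624-134899960), within a stretch of the gene annotated as untranslated exon, was HMR in all P60 and in no P2 library. Its level was 42.6% and 37.1% at P2 and 14.8% and 15.2% at P60, lower in both subtypes at 4 of its 5 CpGs. It was the only such segment in the windows of the 10 genes, where such bases made up 0.00551% of the autosomes. The 1 HMR of this window that gained methylation lay upstream (chr6:134879963-134880273), at 9.09% (3.95 to 19.6, 55 reads) and 23.0% (14.2 to 34.9, 61 reads) at P2 and at 28.9% and 57.3% at P60. The rest of the gene body, 11 CpGs outside HMRs, was also lower at P60, at 67.4% and 62.5% against 48.5% and 46.5%.

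**Figure D4:**
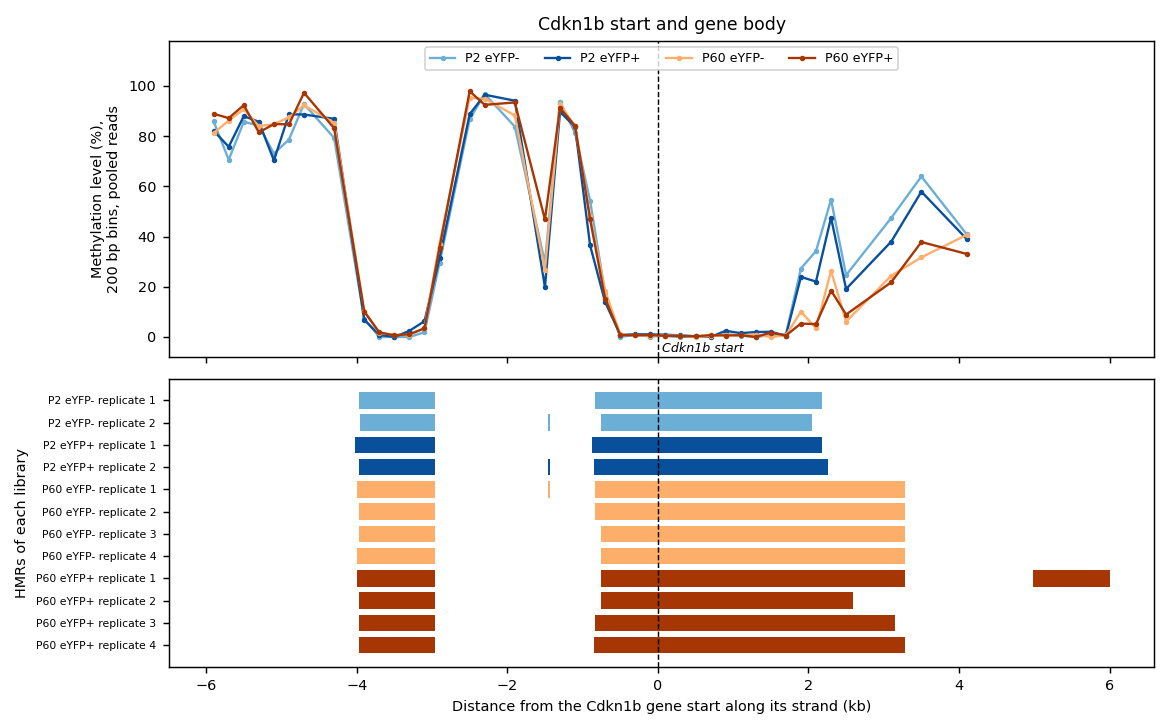
Top, methylation level (%) of the 4 pools in 200 bp bins around the Cdkn1b start, by distance in kb along the gene; bottom, the HMRs of each of the 12 libraries as bars. The promoter HMR ends near 2 kb in the 4 P2 libraries and beyond 2.5 kb in the 8 P60 libraries, and the HMR between about 3 and 4 kb upstream is present in all 12 libraries.

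Cdkn2c (chr4:109517957-109524386, minus strand), the p18 gene, lost HMR sequence 3′ of the gene. Its window went from 13.5% ± 0.790 (SD, n = 4; 12.6% to 14.5%) to 11.8% ± 0.324 (SD, n = 8; 11.2% to 12.1%), with an adjusted p of 0.00655 by the exact permutation test and no overlap, yet from 6.03-fold to 6.71-fold relative to the autosomes. The HMR 9376 bp past its start (chr4:109513957-109516063) covered 1418 to 2107 bp in the P2 libraries and 859 to 999 bp in the P60 libraries, and its level went from 10.1% and 7.81% to 18.7% and 20.6%, under 10 points in eYFP- cells. The promoter HMR was alike at both stages, at 2.93% to 3.03% in the 4 pools.

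Among the D-type cyclins, Ccnd1 (chr7:144483668-144493662, minus strand) was the 1 gene whose window did not pass. The window was 15.4% to 16.9% HMR in the P2 libraries and 15.03% to 16.01% in the P60 libraries, which overlapped (adjusted p = 0.345, exact permutation test), and relative to the autosomes it was higher at P60, 8.85-fold against 7.12-fold. Its promoter HMR of 6545 bp was at 1.21% to 1.57% in the 4 pools. Its 1 changed HMR, of 177 bp and 8 CpGs in an untranslated exon of the neighbouring gene LTO1, was lower at P60, at 47.6% (40.9 to 54.4) and 28.9% (22.9 to 35.7) against 24.5% (20.7 to 28.9) and 18.4% (15.3 to 22.0). It was an HMR in no P2 library and in 2 P60 libraries.

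Ccnd2 (chr6:127102125-127129156, minus strand), the cyclin needed for postnatal beta-cell growth, lost the upstream HMR printed above. Its window was 15.9% and 17.2% HMR in the P2 eYFP- libraries, 16.8% in both P2 eYFP+ libraries and 14.0% to 15.6% (median 15.1%) in the P60 libraries, without overlap (adjusted p = 0.00655, exact permutation test). Relative to the autosomes it was higher at P60, 8.54-fold against 7.43-fold. The HMR 10757 bp upstream (289 bp, 7 CpGs) went from 11.9% (8.55 to 16.3, 269 reads) to 32.8% (28.5 to 37.4, 433 reads) in eYFP- cells and from 10.3% (6.61 to 15.7, 175 reads) to 32.2% (27.9 to 36.9, 410 reads) in eYFP+ cells. All 289 bp were HMR in each P2 library and in no P60 library. The promoter HMR covered 8519 bp in each P2 library and 7993 to 8304 bp in the P60 libraries (adjusted p = 0.0148, exact permutation test) with levels of 2.52% and 2.67% at P2 and 4.38% and 4.04% at P60.

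Ccnd3 (chr17:47815767-47910624, plus strand) held 13 HMRs, 5 of which gained methylation. Its window fell from 7.88% ± 0.890 (SD, n = 4; 6.86% to 9.03%) to 6.07% ± 0.451 (SD, n = 8; 5.43% to 6.86%), with an adjusted p of 0.0116 by the exact permutation test, and was alike relative to the autosomes, 3.51-fold and 3.45-fold. The HMR 32716 bp past the 5′ end, in an intron, went from 26.9% and 23.6% to 50% in both subtypes and was an HMR in no single library. The one 13424 bp past the 5′ end went from 28.8% and 26.6% to 51.7% and 51.3% and was an HMR in 3 P2 libraries and no P60 library. The one in an intron of Taf8 upstream (chr17:47795057-47796392) went from 24.6% and 17.5% to 38.9% and 43.6% and was an HMR in both P2 eYFP+ libraries alone. None of these 3, which had the largest mean changes of the 5 (24.8, 23.8 and 20.2 points), passed for coverage over libraries (adjusted p = 1, 0.0734 and 0.237, exact permutation test).

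At the start of the main Ccnd3 transcript, 88597 bp past the 5′ end of the gene, the HMR (chr17:47904028-47907112, 153 CpGs) covered 2351 to 3006 bp in the P2 libraries and 1788 to 2114 bp in the P60 libraries (adjusted p = 0.0148, exact permutation test). Its level went from 7.07% and 6.93% to 13.4% and 13.8%. The HMR at the 5′ end was also covered less at P60 (adjusted p = 0.0266, exact permutation test), at 2.96% and 3.89% against 4.31% and 4.67%.

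The kinase genes kept their promoters. For Cdk4 (chr10:126895180-126903789, plus strand) the window, which also holds the starts of Eef1akmt3, Mettl1, Cyp27b1, Marchf9, Tspan31 and Agap2, was 31.3% to 33.4% HMR in the P2 libraries and 29.2% to 30.9% (median 30%) in the P60 libraries, without overlap (adjusted p = 0.00655, exact permutation test). Relative to the autosomes it was higher at P60, 17.05-fold against 14.6-fold. The HMR shared by the Cdk4 and Marchf9 starts was at 1.52% to 1.63% in all 4 pools, and the one at the start of the main Cdk4 transcript was at 14.5% and 13.5% at P2 and 11.2% and 11.6% at P60. The changed HMR lay in an intron of Agap2, 24561 bp from the Cdk4 gene start (chr10:126919411-126920071, 7 CpGs), and rose from 12.1% (8.12 to 17.6) and 10.6% (7.01 to 15.6) to 34.1% (30.2 to 38.2) and 28.8% (24.7 to 33.3). The P2 libraries called 612, 661, 661 and 661 bp of it as HMR, and the P60 libraries none.

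For Cdk6 (chr5:3391485-3581008, plus strand) the window went from 4.69% ± 0.323 (SD, n = 4; 4.22% to 4.96%) to 3.84% ± 0.420 (SD, n = 8; 3.40% to 4.56%), with overlap (adjusted p = 0.0205, exact permutation test), and from 2.09-fold to 2.18-fold relative to the autosomes. Its promoter HMR of 4891 bp was at 1.57% to 1.956% in the 4 pools. Within its introns 2 HMRs gained methylation, 37900 bp past the start from 17.1% and 16.2% to 44.8% and 40.5%, and 112668 bp past the start from 18.9% and 8.63% to 29.5% and 31.6%. The one at 37900 bp, of 6 CpGs, was an HMR in no single library and did not pass for coverage. The one at 112668 bp was an HMR in 4 P2 and 3 P60 libraries and was covered less at P60 (adjusted p = 0.0148, exact permutation test). Another, 175448 bp past the start, was lower at P60, at 31.5% and 22.0% against 12.6% and 8.23%, and was an HMR in no P2 library and in 2 P60 libraries, both of them replicate 2.

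At the annotated starts no gene of the 10 passed the stage test, where 2.12% of all promoters were higher and 1.6% lower. Within 1 kb of the 5′ end of the gene, 8 of the 10 lay at or below 10.3% in all pools, Ccnd3 lay at 7.83% to 11.3%, and Cdkn1a, whose annotated 5′ end is 2802 bp upstream of its canonical start, lay at 71.3% to 73.7%. At the start of the canonical transcript, a choice added after the data were seen, all 10 lay between 0.684% and 16.2%, with Cdk4 the highest.

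**Figure D5:**
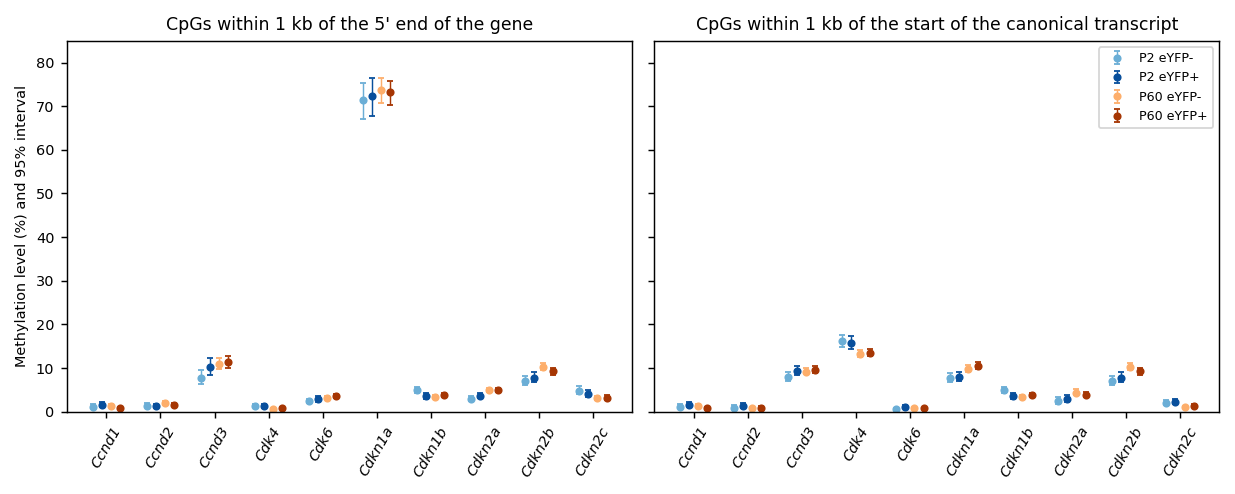
Methylation level (%) of CpGs within 1 kb of the 5′ end of each gene (left) and of the start of its canonical transcript (right) in the 4 pools, with 95% Wilson intervals as bars. All levels are below 20% except at the 5′ end of Cdkn1a, and the 4 pools of a gene lie close together.

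Gene bodies outside HMRs and over 1 kb from the start changed for 3 of the 10 genes. Cdkn2b rose from 61.2% and 55.4% to 82.9% and 82.8% (47 CpGs) and Cdkn2c from 68.8% and 62.2% to 84.1% and 83.8% (18 CpGs), with a background of 0.696% of all genes. Cdkn1b fell, as given above, with a background of 1.67%. Cdkn2a missed the limit in 1 subtype, at 65.1% and 62.4% against 75.1% and 73.9%. The other 6 moved by less than 5 points in both subtypes, with Ccnd2 at 77.4% and 78.2% against 74.5% and 74.5%.

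Between the subtypes few HMRs of these genes differed. At P2, 1 of the 58 passed (background 1.33%), the HMR of 177 bp near Ccnd1, at 47.6% in eYFP- and 28.9% in eYFP+ cells (adjusted p = 0.0159, Fisher's exact test on the pools). At P60, 2 passed (background 0.732%), both upstream of Cdkn1b and both higher in eYFP+ cells. The one farther upstream (chr6:134879963-134880273) was at 28.9% (23.5 to 35.0, 235 reads) against 57.3% (47.6 to 66.4, 103 reads) and the one nearer (chr6:134895905-134895927, 23 bp) at 26.6% (21.5 to 32.3, 256 reads) against 46.8% (40.9 to 52.8, 265 reads). Each holds 9 CpGs, and their reads are summed over these CpGs. In the nearer one all 9 lie within 23 bp, so a read can count up to 9 times and its intervals are likely too narrow. Of the 311 bp of the first, P60 HMRs covered only 27 and 23 bp in 2 eYFP- libraries and 27 bp in 1 eYFP+ library. The second was an HMR in 1 P60 eYFP- library and in no P60 eYFP+ library. At P60 the Cdkn1a HMR 9883 bp upstream, at 66.0% in eYFP- and 56.2% in eYFP+ cells, fell just short of 10 points (adjusted p = 9.85e-05, Fisher's exact test on the pools).

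The change between P2 and P60 was not shown to differ between the subtypes for any of the 10 genes. By the exact permutation of subtype labels within each stage, none of the 10 passed after adjustment, and 0.0% of all genes did; none of the 10 and 529 of 21757 genes had an unadjusted p under 0.05. Over the union of the 10 windows, HMRs covered 13.4% ± 0.524 (SD, n = 4) at P2 and 11.3% ± 0.176 (SD, n = 8) at P60, which gave p = 0.00202 by the exact permutation test (two-sided), its smallest possible value. With same-numbered P60 libraries averaged the p was 0.0286, and with those of P2 averaged as well it was 0.0667, each the smallest possible (exact permutation test). Relative to the autosomes the union was higher at P60 by 0.427-fold units (p = 0.00202, same exact test). At P60 the eYFP- and eYFP+ libraries held 11.3% ± 0.0807 and 11.3% ± 0.254 (SD, n = 4 each), a difference of 0.0434 points (exact permutation p = 0.914).

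Of 34 other genes of the G1/S pathway, 19 had a lower HMR-covered percent at P60 and 1 (Ccnh, the partner of Cdk7) a higher one, against 45.1% and 0.961% of all genes, and none of their promoters passed. The largest fall was at Bmi1, a Polycomb repressor of the Cdkn2a locus, from 34.1% ± 1.60 (SD, n = 4) to 24.9% ± 1.83 (SD, n = 8). E2f6 fell from 5.91% to 3.33%, E2f4 from 12.2% to 9.95%, E2f8 from 6.41% to 4.32%, Mycn from 11.9% to 9.67% and Cdkn1c, the p57 gene, from 12.7% to 10.7% (adjusted p of 0.00655 to 0.0161, exact permutation test). Divided by the autosome percent, 2 of the 34 (E2f6 and Rb1) were lower and 15 higher, against 10.6% and 29.0% of all genes, and the other 5 genes just named did not pass, with Bmi1 at 15.2-fold and 14.1-fold.

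The promoters were searched for E2F letters from 250 bases before to 50 bases after the canonical start, on both strands. Of the 10 genes, only Ccnd3 held TTTGGCGC, found in 0.676% of all promoters, and none held TTTCCCGC (1.37%) or TTTCGCGC (0.354%). All 3 motifs begin with TTT and end with CGC, and at least 1 of them, counted once per promoter, was found in 2.33% of all promoters. The 10 promoters held 10 (Ccnd2) to 33 (Cdkn2c) CpGs and had a GC content of 56.3% to 74.7% over these 300 bases.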

How the data were processed

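Tagmentation-based whole-genome bisulfite libraries of sorted beta cells were made by the authors, trimmed with Trim Galore 0.6.6 and cutadapt 1.16, mapped to mm39 with abismal and processed with MethPipe, whose version was not given in the sources used here, and with SAMtools 1.5. The deposited files give, per CpG, counts of methylated and unmethylated reads pooled by the authors over the libraries of a subtype and stage, and HMRs called per library and per pool. The pooled columns are named B1 and B2 and were read as eYFP- and eYFP+. Lists of differentially methylated regions from the authors' own comparisons of the subtypes were not used. Pools held 522523439 to 948851081 read counts summed over 21730423 CpGs, where a read counts once for each CpG it covers, and 95% Wilson intervals cover counting error only.

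HMRs of the 4 pools were merged where they overlapped. HMR levels, promoters (1 kb each side of the start) and gene bodies were tested with Fisher's exact test (two-sided) where every pool had at least 30 reads. The share of an HMR or gene window covered by library HMRs was compared by exact permutation tests over libraries, all regroupings enumerated. The p-values of single HMRs, gene windows, promoters and gene bodies were Benjamini-Hochberg adjusted over all features, except where named unadjusted. Those over the union of the windows were single tests without adjustment. The code was tested on simulated data and used Python 3.11.15, numpy 2.4.6, pandas 2.3.3, scipy 1.17.1, numba 0.67.0, pysam 0.24.0 and matplotlib 3.10.9.

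The genes, pathway list, markers and motifs were chosen with earlier results of these data known. The level of 1 marker gene is not reported here. Named were all 10 genes, their promoter HMRs, up to 3 changed HMRs per gene and direction by mean change, every HMR that differed between subtypes, and the 6 pathway genes with the largest change past the threshold. The interval between the Cdkn2b and Arf starts and the segments held in all libraries of 1 stage alone were outside this rule and were chosen after their values were seen. Sequences were read from the mm39 reference. At P60 the deviations of libraries with the same replicate number correlated across 84470 HMRs at 0.150, 0.204, 0.309 and 0.140 for replicates 1 to 4, and the numbers were taken as pairs. Libraries of the same number also share labelled sex and file-name prefix. No correlation between libraries of unlike number is given beside these, so the values do not show that the numbers are pairs.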

Additional observations from a re-analysis of the deposited data

Results flagged for a closer look

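In 22 groups of 4 P60 libraries tested for 1 library far from the others, 2 stood out, and chance gives about 1 in 20. The Ccnd2 window was 15.6% HMR in P60 eYFP+ replicate 3, while the other 3 eYFP+ libraries were all at 15.1%. Over the windows of all 10 genes together, P60 eYFP+ replicate 1 was at 11.7% and the other 3 eYFP+ libraries were all at 11.2%. Both libraries stayed below the lowest P2 library, at 15.9% for Ccnd2 and 12.9% for the 10 genes.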

How the results depend on the processing

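Dividing by the HMR-covered percent of the autosomes turned the stage difference over all 10 windows from -2.14 points to 0.427-fold units (p = 0.00202, exact permutation test), and that of Ccnd1 to 1.72, Ccnd2 to 1.105, Cdk4 to 2.48, Cdk6 to 0.0887 and Cdkn2c to 0.675, with 8 genes passing in place of 9; the median of all genes moved from -0.464 points to 0.0829. The count of 16 HMRs changed in level was 6 at 20 points, 9 with Bonferroni adjustment, 10 with a flank of 5 kb and 8 with no flank. The count of 15 HMRs changed over libraries was 3 by presence or absence, where 5.33% of all HMRs passed, and 12 to 17 with each library left out. The count of 3 HMRs that differed between subtypes was 1 among HMRs of at least 200 bp. Without a flank, Ccnd2, Cdk4 and Cdk6 no longer passed (adjusted p = 0.163, 0.119 and 0.0632, exact permutation test). With each library left out, 9 genes passed every time, and the difference over all windows ranged from -2.31 to -1.89. At P60 the subtype difference over all windows was 0.0434 points with the replicate block (p = 0.75, exact test over pairs, where 0.125 is the smallest possible) and ranged from -0.0827, without P60 eYFP+ replicate 1, to 0.0980 with a library left out. In the comparison of subtypes the block changed no call. In the comparison of stages, with same-numbered libraries averaged, chosen after seeing the data, the difference over all windows was -2.14 points, with p = 0.0286 where P60 alone was averaged (4 against 4) and 0.0667 where both stages were (2 against 4), each the smallest possible by the exact permutation test, and no HMR or gene passed (smallest adjusted p of 0.0675 to 0.216). With 1 set of P60 libraries alone no HMR or gene could pass (smallest adjusted p of 0.0728 to 0.154, exact permutation test), while the difference over all windows was -2.05 and -2.22. No promoter passed under any alternative. Beyond the construction of each alternative, the cause of these moves was not tested. Read counts exist only per pool, so levels carry no error between mice, and stage cannot be told apart from library set.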
